A study of Mus musculus with 24 samples.

Results

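The nuclear genes for the machinery of oxidative phosphorylation were followed across endothelial and stromal cells of mouse bone marrow. The genes were taken by symbol: names starting with Nduf, Uqcr, Atp5, Cox4, Cox5, Cox6, Cox7 or Cox8, together with Sdha, Sdhb, Sdhc, Sdhd and Cycs, which gave 93 of the 23879 gene symbols. By complex these were 44 genes of complex I, 4 of complex II, 8 of complex III, 20 of complex IV, 16 of complex V and the electron carrier gene Cycs. The names also caught 10 assembly factors or genes that encode no subunit, among them Ndufaf1 to Ndufaf7, and 8 isoform genes known mainly from particular tissues, leaving 75 genes, the ubiquitous subunits and the carrier. Assembly factors and isoforms are counted with their complex. Cyc1 is a subunit of complex III whose symbol the prefixes did not catch. The subunits encoded by mitochondrial DNA were not analysed here.

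Complexes I to IV form the respiratory chain of the inner mitochondrial membrane: they pass electrons from NADH and succinate through ubiquinone and cytochrome c to oxygen, and complexes I, III and IV pump protons as they do so. Complex V, the ATP synthase, lets the protons return and makes ATP. Endothelial cells are known to draw much of their ATP from glycolysis, and low oxygen is known to exchange some subunits of complex IV for isoforms induced by the HIF transcription factors.

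Polyadenylated RNA was sequenced from C57BL/6J cells in 24 libraries, which form 8 groups of 3. Bone marrow endothelial cells (BMEC) and bone marrow stroma (BMS) were each profiled in culture (titles BMEC-Akt1 and BMS-Akt1), in a further culture series kept alone (CC-Alone) or grown together with hematopoietic stem and progenitor cells (CC+HSPC, called HSCs in another label), and in vivo, and the groups are called cultured, alone, with HSPC and in vivo here. All 18 libraries from culture carry the name Akt1, a kinase of growth factor signalling, and the labels do not say what was done to it. The 6 in vivo libraries lack it, so the in vivo setting, that name and the isolation of the cells cannot be told apart. The labels give no age, sex, clone, culture time or oxygen level, and do not say whether replicates came from separate animals or cultures or whether HSPC were removed before RNA was taken. The p-values thus cover only how far these libraries differ from one another, which may be a technical spread.

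Levels are the deposited FPKM, fragment counts scaled for transcript length and library size, and differences are on the log2(FPKM + 1) scale, which understates the change of low genes. Groups are given as mean ± SD (n = 3), and differences as log2 value ± SE with the adjusted p of limma over all genes tested, called at an adjusted p under 0.05. The sequencing depth is unknown, so no counting error can be given. The endothelial markers (6 genes, summed FPKM) reached 6436 to 14789 in BMEC libraries and at most 27.4 in BMS libraries, and the stromal markers (6 genes) reached at least 3241 in BMS libraries and at most 243.9 in BMEC libraries, although Lum was listed at 0 in all cultured BMS libraries. Among the cultured libraries, replicate 1 of BMS stood apart, with a median member level of 8.33 against 7.62 and 7.57 in replicates 2 and 3. Xist was at 1006 to 1250 FPKM in cultured BMEC replicates 2 and 3 and cultured BMS replicate 3, and at most 2.35 in the other 21 libraries.

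Promoters were looked at because most of these genes moved together between settings and a few isoform genes did not. A RefSeq promoter (GRCm38.p6, 250 bases before to 50 after the gene start) was matched for 77 of the 93 genes. Motifs of NRF1 (GCGCA and GCGC with 1 base of any kind between them), of the ETS factors that include GABP (CCGGAAG) and of YY1 (AAGATGGC), known regulators of respiratory genes, were searched on both strands. They do not overlap in the promoters printed here. The NRF1 letters were in 23.4% of the members' promoters and in 4.78% of all 27025 promoters, the ETS letters in 20.8% and 9.12%, and the YY1 letters in 13.0% and 2.88%. At least 1 of the 3 was in 39 members (50.6%) and in 15.2% of all promoters. The TATA letters TATAAA were in 9.09% of the members' promoters and in 14.2% of all. The 5 members with motifs of 2 kinds were Atp5h, Atp5k, Cox6a1, Ndufs6 and Sdhd, of which 4 are printed beside Cox8b, the isoform gene with the widest contrast within BMEC, chosen with these matches and levels known. Capitals mark the searched letters on either strand, and each run reads 5′ to 3′ along the gene.
Cox6a1 (chr5:115348909-115349208, minus strand): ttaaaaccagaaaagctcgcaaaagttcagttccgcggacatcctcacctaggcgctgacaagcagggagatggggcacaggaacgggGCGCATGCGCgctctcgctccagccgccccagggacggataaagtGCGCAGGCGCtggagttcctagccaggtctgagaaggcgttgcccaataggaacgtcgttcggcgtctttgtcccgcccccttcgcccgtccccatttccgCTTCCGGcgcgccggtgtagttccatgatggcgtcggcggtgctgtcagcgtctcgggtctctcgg
Atp5h (chr11:115419870-115420169, minus strand): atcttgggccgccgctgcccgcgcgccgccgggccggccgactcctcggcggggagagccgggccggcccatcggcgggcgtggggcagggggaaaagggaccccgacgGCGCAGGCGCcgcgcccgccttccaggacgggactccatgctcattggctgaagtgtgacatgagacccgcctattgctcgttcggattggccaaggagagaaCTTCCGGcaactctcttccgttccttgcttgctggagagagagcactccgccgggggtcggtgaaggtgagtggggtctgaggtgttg
Sdhd (chr9:50603800-50604099, minus strand): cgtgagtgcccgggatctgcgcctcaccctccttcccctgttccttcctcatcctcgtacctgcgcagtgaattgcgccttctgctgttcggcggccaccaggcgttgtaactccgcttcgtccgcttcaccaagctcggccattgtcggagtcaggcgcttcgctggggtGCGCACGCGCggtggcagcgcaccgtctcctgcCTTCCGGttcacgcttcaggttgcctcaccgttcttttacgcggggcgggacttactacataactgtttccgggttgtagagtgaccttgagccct
Ndufs6 (chr13:73328433-73328732, minus strand): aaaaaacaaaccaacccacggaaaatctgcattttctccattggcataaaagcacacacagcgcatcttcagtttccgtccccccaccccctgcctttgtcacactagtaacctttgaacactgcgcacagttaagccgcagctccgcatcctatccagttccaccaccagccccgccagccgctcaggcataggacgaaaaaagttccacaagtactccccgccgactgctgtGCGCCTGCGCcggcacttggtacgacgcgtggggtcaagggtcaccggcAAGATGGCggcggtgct
Cox8b (chr7:140900397-140900696, minus strand): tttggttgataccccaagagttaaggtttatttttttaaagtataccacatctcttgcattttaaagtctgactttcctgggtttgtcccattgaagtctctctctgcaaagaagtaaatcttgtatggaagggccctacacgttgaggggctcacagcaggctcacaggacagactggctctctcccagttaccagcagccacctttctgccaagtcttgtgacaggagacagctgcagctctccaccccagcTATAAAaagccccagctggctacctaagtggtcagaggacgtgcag
The first 4 promoters hold NRF1 letters, 3 of them with ETS letters and that of Ndufs6 with YY1 letters, which lie after the gene start. The promoter of Cox8b holds none of these 3 motifs and 1 TATAAA, which also lies after the gene start. This does not set it apart: those of the ubiquitous Ndufb2, Ndufab1 and Cox5a also lack the 3 motifs, and those of Atp5l and Ndufa7 also hold TATAAA. Whether the motifs go with changes of level was not tested. The core letters of HIF sites (ACGTG or GCGTG, not in capitals here, and able to overlap the NRF1 letters) were in 66.2% of the members' promoters and in 43.8% of all, and the Cox8b promoter holds ACGTG at 2 places.

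The members were abundant transcripts in every group. The median member stood at 8.26 ± 0.19 in cultured BMEC and 7.84 ± 0.43 in cultured BMS on the log2(FPKM + 1) scale. It was 7.97 ± 0.04 in BMEC alone and 7.96 ± 0.07 with HSPC, against 7.57 ± 0.06 in BMS alone and 7.50 ± 0.05 with HSPC. In vivo it was 7.50 ± 0.04 in BMEC and 7.34 ± 0.09 in BMS. Summed, the members took 2.33% ± 0.19 of all FPKM in cultured BMEC, 2.07% ± 0.02 in BMEC alone, 2.03% ± 0.04 with HSPC and 1.32% ± 0.02 in vivo. In BMS the same share was 1.70% ± 0.37, 1.56% ± 0.07, 1.49% ± 0.04 and 1.09% ± 0.05. The 75 genes without assembly factors and isoforms took 1.93% ± 0.03 in BMEC alone and 1.96% ± 0.04 in BMEC with HSPC. In BMS these 75 took 1.51% ± 0.06 alone and 1.31% ± 0.04 with HSPC. The group with the highest mean was listed as cultured BMEC for 59 of the 93 members. That count includes the 2 members at 0 in all libraries, whose groups tie. The lowest mean, counted without these 2, was in BMS in vivo for 47 and in BMEC in vivo for 22.

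Within each complex the levels spanned a wide range. In complex V, Atp5b, the catalytic beta subunit, averaged 1776 FPKM over the 8 groups and Atp5s, a factor of the synthase and no subunit, 28.7 FPKM. In complex IV, Cox4i1, a regulatory subunit, averaged 1354 FPKM, and the testis genes Cox7b2 and Cox8c were listed at 0 in all 24 libraries. In complex I, the highest was Ndufa8, an accessory subunit, at 608.5 FPKM and the lowest was Ndufaf5, an assembly factor, at 13.9 FPKM. In complex III, Uqcrq averaged 611.9 FPKM and Uqcr11 99.9 FPKM, both small accessory subunits. In complex II, Sdha, the flavoprotein that oxidises succinate, averaged 407.2 FPKM and Sdhb, the iron-sulfur subunit, 209 FPKM. Cycs, the soluble carrier between complexes III and IV, averaged 35.6 FPKM. Of the 93 members, 85 were above 0 in every library, and the 8 that were not are the 8 tissue isoforms.

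**Figure D1:**
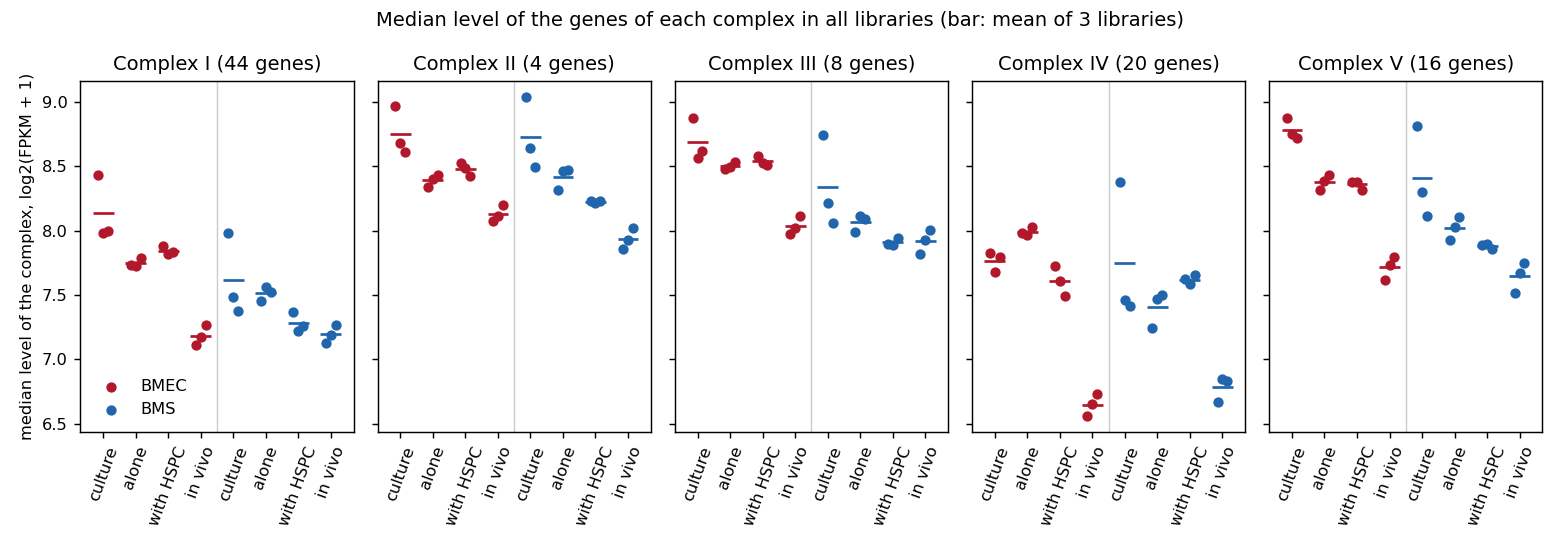
Each point is 1 library, plotted as the median log2(FPKM + 1) of the genes of a complex (panels), with bars for the mean of the 3 libraries of a group; red is BMEC and blue is BMS. The in vivo libraries of BMEC lie below all cultured BMEC libraries in each complex, and replicate 1 of cultured BMS lies above the other 2 in each complex.

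In vivo, respiratory genes of all complexes were lower than in culture, in both cell types. In BMEC, 69 of the 89 members tested fell and 3 rose (77.5% and 3.37%), against 29.8% and 23.6% (53.3% in all) of the 14904 genes tested. In BMS, 58 fell and 2 rose (65.2% and 2.25%), against 31.4% and 24.0% (55.4% in all). The median member difference was -0.83 in BMEC and -0.64 in BMS, where the median gene differed by -0.09 and -0.15. The BMEC and BMS comparisons share no library, and 54 members fell in both (60.7% of those tested), against 17.8% of all genes tested. Of the genes whose promoters are printed, Cox6a1, Atp5h and Sdhd fell in both cell types, by 0.90 ± 0.17, 1.23 ± 0.23 and 0.87 ± 0.17 in BMEC. Ndufs6 fell in BMEC (-0.61 ± 0.21, limma adjusted p = 0.032) and was not called in BMS (-0.48 ± 0.21, limma adjusted p = 0.075).

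By complex, the falls in BMEC took in 35 of 44 genes of complex I, 2 of 4 of complex II, 6 of 8 of complex III, 11 of 16 tested of complex IV and 14 of 16 of complex V. In BMS the same counts were 25, 4, 6, 11 and 11. The share of all genes tested that fell was 29.8% in BMEC and 31.4% in BMS. Cycs fell from 57.0 ± 4.8 to 23.9 ± 2.3 FPKM in BMEC (-1.22 ± 0.21, limma adjusted p = 0.00076). In BMS it fell from 41.1 ± 14.5 to 18.8 ± 1.3 FPKM (-1.03 ± 0.21, limma adjusted p = 0.0020). Of the 7 conserved core subunits of complex I, 4 fell in BMEC and 2 in BMS, in BMS no larger a share than that of all genes. The median differences of the core subunits were -0.49 and -0.35, against -0.78 and -0.54 for all of complex I. Those of the assembly factors and non-subunits were -0.57 and -0.38, with 5 and 4 of 10 lower.

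Ndufab1, the mitochondrial acyl carrier protein that is also a subunit of complex I, showed the largest fall in BMEC. It was at 47.3, 60.2 and 45.6 FPKM in the cultured libraries and at 11.32, 8.73 and 14.6 FPKM in vivo (-2.07 ± 0.37, limma adjusted p = 0.0010). The 2 groups did not overlap. In BMS it was at 52.7, 16.5 and 18.8 FPKM in culture and 16.2, 16.1 and 13.8 FPKM in vivo, and the difference was not called (limma adjusted p = 0.13).

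Atp5g1 encodes the c subunit of the proton-turning ring and has 2 paralogs for the same protein. In BMEC it was at 230.2, 130.6 and 131.5 FPKM in culture and at 39.9, 44.6 and 46.0 FPKM in vivo (-1.84 ± 0.28, limma adjusted p = 0.00037). Cox5a, a subunit of complex IV, was at 769.8, 575.8 and 683.5 FPKM in culture and at 209.3, 228.7 and 219.0 FPKM in vivo (-1.61 ± 0.23, limma adjusted p = 0.00025). Neither gene overlapped between the groups. Ndufa12, an accessory subunit of complex I, fell by 1.70 ± 0.25 (231.2 ± 52.0 to 69.5 ± 5.4 FPKM) and Ndufb2, another, by 1.64 ± 0.15 (311.8 ± 39.4 to 99.6 ± 14.9 FPKM).

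In BMS the largest falls were those of Ndufaf2, Uqcrq, Cox7c, Ndufa12 and Ndufc1. Uqcrq, the small subunit of complex III, was at 704.9, 723.6 and 565.6 FPKM in culture and at 247.9, 266.6 and 285.0 FPKM in vivo (-1.31 ± 0.13, limma adjusted p = 1.5e-05). Ndufaf2, an assembly factor of complex I, was at 171.8, 143.7 and 151.0 FPKM in culture and at 54.2, 57.5 and 60.1 FPKM in vivo (-1.42 ± 0.15, limma adjusted p = 2.8e-05). Cox7c, a small subunit of complex IV, fell from 137.8 ± 22.2 to 55.0 ± 5.3 FPKM. For these 3 genes every in vivo library was below every cultured library.

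Few members rose in vivo. Cox4i2 rose in both cell types, Atp5s and Ndufa4l2 rose in BMEC, and Cox6b2 rose in BMS; the isoforms are described further on. The difference between the cell types in the change from culture to in vivo was called for 6 of 89 members (6.74%), 2 higher and 4 lower in BMEC (2.25% and 4.49%), against 16.4% and 17.1% (33.5% in all) of the genes tested. Ndufb2 was at 83.8, 101.4 and 113.5 FPKM in BMEC in vivo and at 202.3, 193.1 and 224.1 FPKM in BMS in vivo. In cultured BMS it was at 237.3, 185.2 and 180.5 FPKM, a difference of 0.05 from in vivo, so that the fall in BMEC was larger by 1.69 ± 0.21 (limma adjusted p = 0.00019). Ndufs4, Uqcrfs1 and Cox5b also fell further in BMEC. Without replicate 1 of cultured BMS 32 members were called for this difference, 30 of them lower in BMEC, and without replicate 3 of BMS in vivo 3 were called. Under trimmed-mean scaling it was 3 higher and 12 lower, and under quantile normalization 3 and 16.

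In these bulk libraries, fewer cells of a type and less RNA per cell cannot be told apart. The 5 erythroid markers were all at 1 FPKM or more in the in vivo libraries, with a sum of 654.8 to 1281 FPKM in BMEC and 36905 to 44656 FPKM in BMS, and 0 to 2.54 FPKM in the cultured ones. The 5 neutrophil markers, 4 of them at 1 FPKM or more in every BMEC library in vivo, summed to 202.1 to 280.2 FPKM in BMEC in vivo and 1366 to 3078 FPKM in BMS in vivo, and were listed at 0 in culture. The 6 adipocyte markers summed to 26801 to 32535 FPKM in BMEC in vivo, where 1 of them was at 0 in all 3 libraries. In cultured BMEC the sum was 14.1 to 2175 FPKM. In BMS in vivo, with all 6 at 1 FPKM or more, it was 3171 to 3638 FPKM. Such sums do not show which cells the transcripts came from. The part of these marker transcripts in the lower respiratory levels was not tested. With trimmed-mean scaling between libraries the median of all genes moved from -0.15 to 0.05 in BMS and from -0.09 to 0 in BMEC, and the members' median from -0.64 to -0.39 and from -0.83 to -0.64.

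**Figure D2:**
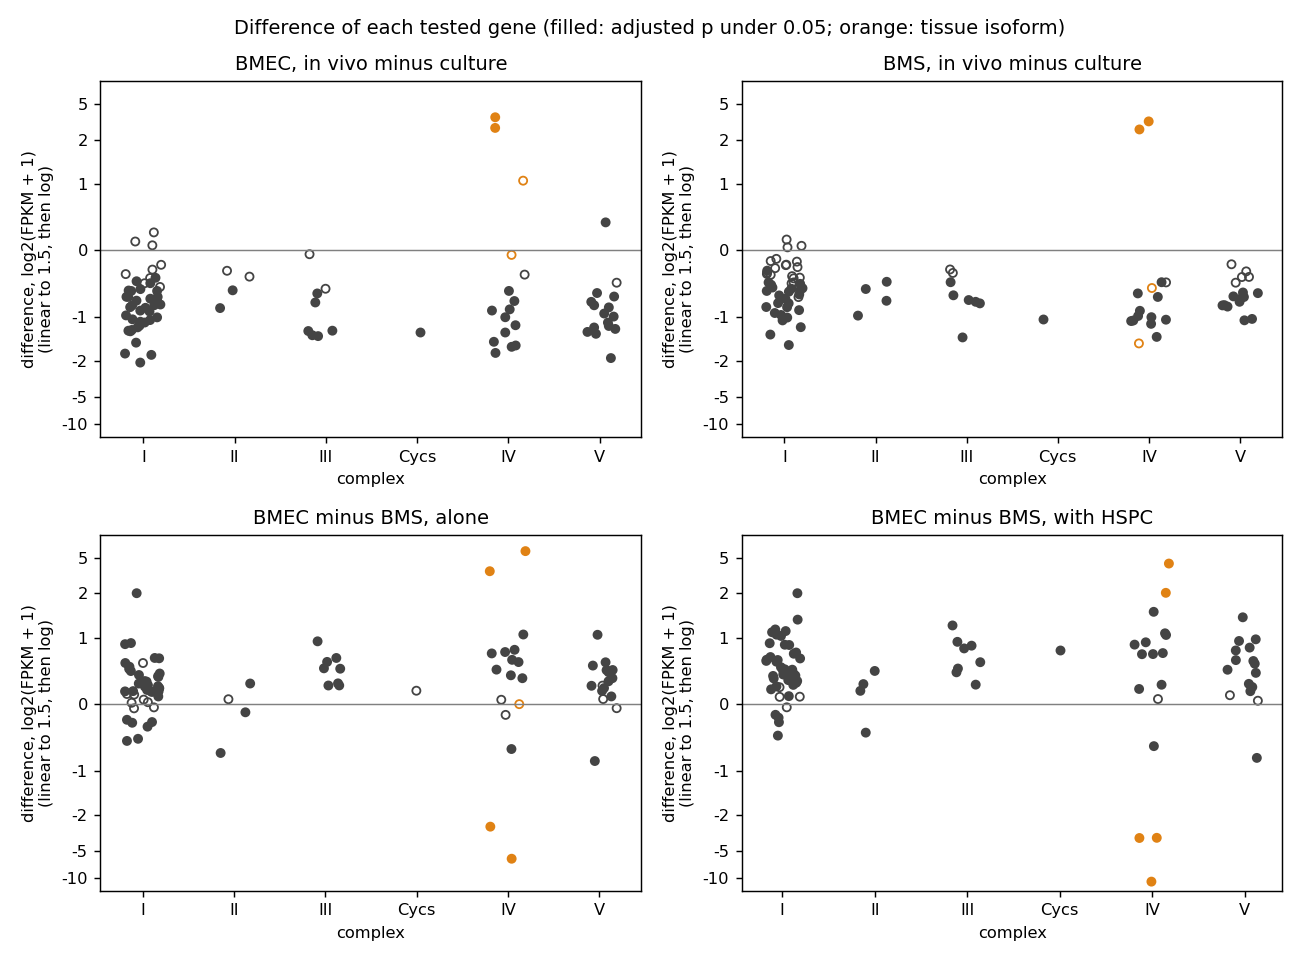
Each point is a tested gene, placed by complex (Cycs on its own) and by its difference in log2(FPKM + 1), with an axis that is linear to 1.5 and logarithmic beyond; filled points were called by limma at an adjusted p under 0.05 and orange marks the tissue isoforms. In the upper panels, 69 and 58 genes lie called below 0, and in the lower panels 62 and 73 genes lie called above it.

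Endothelium held more of these transcripts than stroma in the co-culture series. Alone, 62 of 90 members tested were higher in BMEC and 12 lower (68.9% and 13.3%), against 42.0% and 41.3% (83.3% in all) of the 14017 genes tested. With HSPC, 73 were higher and 10 lower (81.1% and 11.1%), against 46.6% and 38.6% (85.1% in all). The median member differed by 0.28 alone and 0.52 with HSPC, and the median gene by 0.00 and 0.09. All 8 genes of complex III were higher in BMEC in both settings. In complex II, Sdha was higher in BMEC both alone (491.8 ± 18.1 against 396.2 ± 5.6 FPKM) and with HSPC (449.9 ± 13.9 against 317.8 ± 3.8 FPKM), and Sdhb was lower (149.4 ± 9.4 against 249.1 ± 8.7 FPKM alone, 156.4 ± 8.2 against 210.9 ± 12.8 FPKM with HSPC). Sdhc, a membrane anchor, was lower in BMEC alone (-0.12 ± 0.04) and higher with HSPC (0.20 ± 0.04), and Sdhd, the other anchor, was called with HSPC only (0.30 ± 0.06, against 0.07 ± 0.06 alone). Cycs differed by 0.81 ± 0.13 with HSPC (limma adjusted p = 7.1e-05) and was not called alone (0.20, limma adjusted p = 0.15).

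Ndufa8 differed most among the ubiquitous subunits. It was at 1323, 1348 and 1315 FPKM in BMEC alone and at 311.7, 334.7 and 344.9 FPKM in BMS alone (2.01 ± 0.05, limma adjusted p = 1.7e-12). With HSPC it was at 1204, 1115 and 1126 FPKM in BMEC and at 292.4, 273.1 and 290.3 FPKM in BMS (2.00 ± 0.05). The BMEC libraries lay above all BMS libraries in culture and in vivo as well, where the differences were 1.18 ± 0.20 and 1.15 ± 0.20 (limma adjusted p = 0.00096 and 0.00069). Cox5a, Atp5h, a stalk subunit of the synthase, and Uqcrfs1, the Rieske iron-sulfur protein of complex III, were higher in BMEC by 1.05 ± 0.09, 1.04 ± 0.11 and 0.95 ± 0.05 alone. In the other direction stood Atp5s (-0.86 ± 0.09), Ndufa4, now counted as a complex IV subunit (-0.68 ± 0.10), and Ndufa13, a complex I subunit (-0.55 ± 0.07), besides Sdhb.

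Fewer members were called between the cell types in culture and in vivo, where the median member differed by 0.35 and 0.12. In culture, 29 of 89 members were higher in BMEC and 2 lower (32.6% and 2.25%), against 20.1% and 18.6% (38.7% in all) of the genes tested. After Ndufa8 the largest differences were those of Cox5a, Ndufb5, Atp5h and Ndufc2, between 0.81 and 0.84. That count rests on single libraries: 58 members were called without replicate 1 of cultured BMS, 8 without its replicate 2, 9 without its replicate 3, 16 without replicate 1 of cultured BMEC, and 11 without the libraries that hold Xist. In vivo, 13 were higher in BMEC and 5 lower (14.6% and 5.62%), against 25.0% and 24.2% (49.3% in all) of the genes tested. Quantile normalization gave 11 higher and 14 lower, 42 were called with the compared groups fitted alone and 44 with a weight per group, and the count was 29 without replicate 1 of cultured BMS, 11 without replicate 3 of BMEC in vivo and 10 without replicate 1 of BMS in vivo.

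Besides Ndufa8, the genes furthest above stroma in BMEC in vivo were Ndufc2 and Cox7a2l. Ndufc2, a complex I subunit, was at 762.7, 660.9 and 987.0 FPKM in BMEC and at 295.4, 306.9 and 326.6 FPKM in BMS (1.35 ± 0.20, limma adjusted p = 0.00021). Its level in BMEC in vivo was not called different from culture (723.6 ± 62.9 FPKM). Cox7a2l, counted here with complex IV among the assembly factors and non-subunits, was at 387.9, 452.5 and 452.6 FPKM in BMEC. In BMS it was at 207.7, 216.9 and 228.7 FPKM (0.98 ± 0.14, limma adjusted p = 0.00022). Atp5sl, an assembly factor of complex I, and Ndufs8, a core subunit, were higher in BMEC by 0.73 ± 0.14 and 0.70 ± 0.22. Ndufb2 (-1.05 ± 0.15) and Ndufaf7 (-0.48 ± 0.13), an assembly factor of complex I, were lower in BMEC in vivo. The in vivo libraries of BMS are those with the high erythroid sum given above, and its part in these differences was not tested.

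Members known to lie on the X chromosome are Ndufa1, Ndufb11 and Cox7b. In the cultured BMEC libraries Ndufa1, a complex I subunit, was at 393.9 FPKM in the library without Xist and at 395.9 and 394.2 FPKM in those with it. Cox7b, a complex IV subunit, was at 316.2 FPKM in the former and at 289.6 and 260.4 FPKM in the latter. Ndufb11, a complex I subunit, was at 385.3 against 310.2 and 315.5 FPKM. In cultured BMS, Ndufb11 was at 336.6 and 163.5 FPKM in the libraries without Xist and at 170.6 FPKM in the library with it, and Cox7b at 364.2 and 240.6 against 232.6 FPKM. There the high library was replicate 1, which stood apart, and replicate 2 without Xist was close to replicate 3 with it.

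With HSPC, respiratory genes fell in stroma more often than genes at large, while in endothelium both shares were under those of all genes. In BMEC, 21 of 90 members rose and 6 fell (23.3% and 6.67%), against 28.3% and 20.3% (48.6% in all) of the genes tested, and the median member changed by 0.07. In BMS, 10 rose and 42 fell (11.1% and 46.7%), against 25.6% and 35.4% (61.0% in all), and the median member changed by -0.16 where the median gene changed by -0.04. The test of the difference between the responses called 43 members (47.8%), 38 higher and 5 lower in BMEC (42.2% and 5.56%), against 36.0% and 21.1% (57.0% in all) of the genes tested. Cox4i2, among the rises in BMS and these 43 members, was tested only because BMS with HSPC itself reached 1 FPKM. Its calls thus add nothing to the listed levels. The split in BMEC depends on scaling: trimmed-mean scaling gave 15 higher and 8 lower, and quantile normalization 12 and 13.

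In BMS with HSPC, 35.4% of all genes tested fell. The falls of members there covered 23 of 44 genes of complex I, 3 of 4 of complex II and 9 of 16 of complex V. They covered less than that share of complex III (1 of 8) and of complex IV (5 of 17 tested). Cox6c, a small subunit of complex IV, showed the largest, from 329.4, 395.4 and 388.5 FPKM alone to 223.2, 188.1 and 212.3 FPKM with HSPC (-0.83 ± 0.09, limma adjusted p = 7.4e-06). In BMEC it was at 318.4, 323.2 and 351.1 FPKM alone and at 386.7, 351.3 and 326.6 FPKM with HSPC, with overlapping groups. The difference between the 2 responses was 0.93 ± 0.12 (limma adjusted p = 7.0e-05). Cycs in BMS fell from 34.99 ± 3.05 to 24.9 ± 5.3 FPKM (-0.49 ± 0.13, limma adjusted p = 0.0051) and was not called in BMEC. Ndufb7 (-0.41 ± 0.06) and Ndufa11 (-0.40 ± 0.05), accessory subunits of complex I, also fell. The largest rises in BMEC among the ubiquitous subunits, besides Ndufv3, were those of Ndufab1 (0.77 ± 0.28), Ndufb2 (0.44 ± 0.12) and Uqcrq (0.38 ± 0.09).

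In complex II, Sdha fell in both cell types, by 0.32 ± 0.03 in BMS and 0.13 ± 0.03 in BMEC, while Sdhb (-0.24 ± 0.06) and Sdhc (-0.30 ± 0.04) fell in BMS. All 4 genes of complex II were called for a difference between the cell types, higher in BMEC by 0.19 to 0.32. In all, 9 of the 90 members tested (10%) rose in BMEC and fell in BMS, against 7.13% of all genes tested: Atp5g3, Atp5j, Ndufa1, Ndufa3, Ndufaf3, Ndufb10, Ndufb7, Ndufc1 and Ndufs4. Ndufc1, a complex I subunit, was at 190.6, 191.0 and 196.8 FPKM in BMEC alone and at 261.7, 235.1 and 236.9 FPKM with HSPC. In BMS it was at 173.1, 177.7 and 182.7 FPKM alone and at 149.2, 147.5 and 150.3 FPKM with HSPC. Its groups did not overlap in either cell type, and the responses differed by 0.59 ± 0.06 (limma adjusted p = 8.4e-06).

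Of the members, 3 rose in both cell types and 4 fell in both (3.33% and 4.44%), against 10.8% and 9.55% of all genes tested. Ndufv3, a flavoprotein subunit of complex I, rose in both, from 392.9, 399.4 and 409.5 to 891.6, 837.5 and 749.7 FPKM in BMEC (1.04 ± 0.06, limma adjusted p = 6.4e-08). In BMS it rose from 469.3, 493.9 and 486.3 to 820.2, 888.2 and 848.2 FPKM (0.82 ± 0.06, limma adjusted p = 2.8e-07). Atp5d, a subunit of the synthase's central stalk, and Cox7c rose in both by 0.21 to 0.26. Ndufa4, Ndufa8, Sdha and Atp5a1, the catalytic site's alpha subunit, fell in both. Ndufa4 went from 278.9, 260.4 and 269.8 to 219.1, 187.1 and 174.9 FPKM in BMEC (-0.48 ± 0.10) and from 377.4, 463.7 and 458.0 to 340.5, 279.3 and 282.2 FPKM in BMS (-0.52 ± 0.10), with no overlap in either.

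The libraries with HSPC also held leukocyte transcripts. The 5 neutrophil markers were listed at 0 in all 6 libraries alone and summed to 1363 to 1544 FPKM in BMEC with HSPC and 585.5 to 772.1 FPKM in BMS with HSPC. The 5 pan-hematopoietic markers summed to at most 3.42 FPKM alone and to 92.2 to 125.8 FPKM in BMEC and 20.03 to 29.9 FPKM in BMS with HSPC. Their part in the shifts was not tested.

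**Figure D3:**
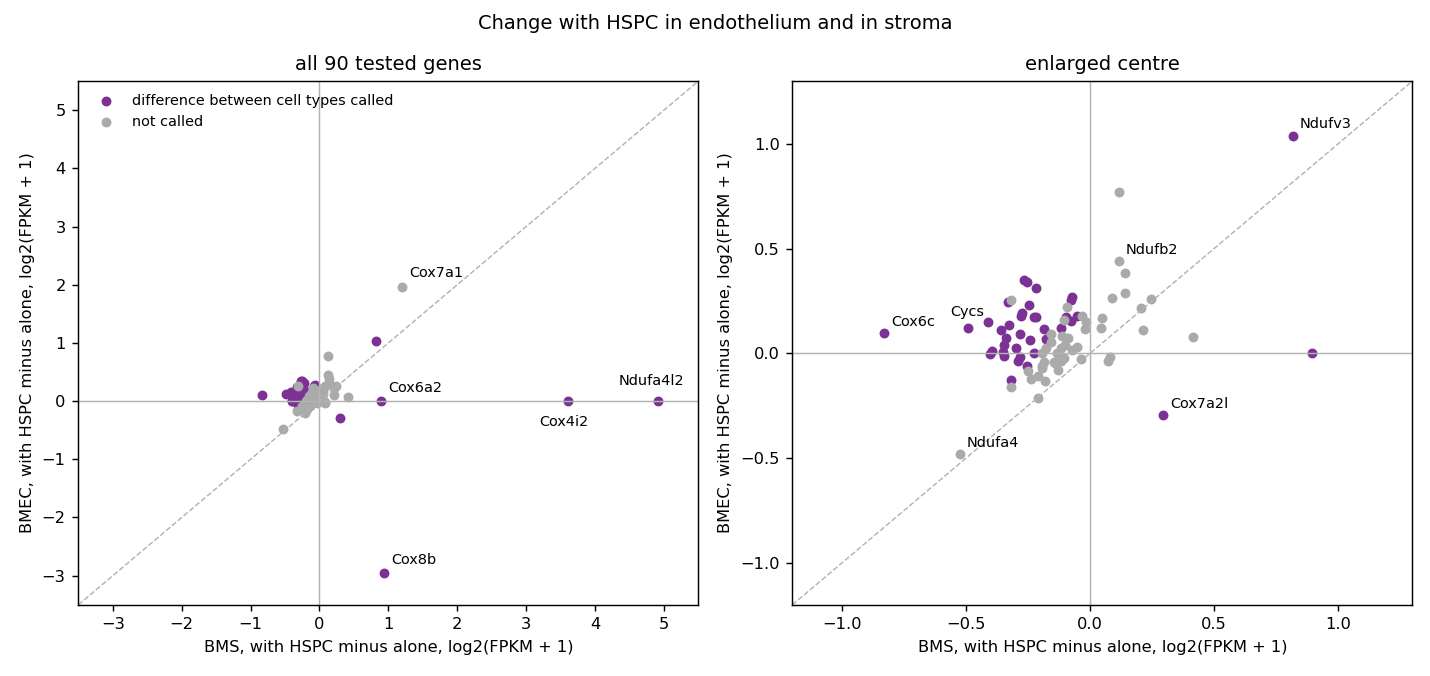
Each point is a tested gene, with its difference with HSPC against alone in log2(FPKM + 1) in BMS (horizontal) and BMEC (vertical); purple points differ between the cell types by limma at an adjusted p under 0.05, the dashed line marks equal change, and the right panel enlarges the centre of the left. Most purple points lie left of 0 and above the dashed line, Ndufv3 rises on both axes, and Ndufa4l2 and Cox4i2 lie far to the right at no change in BMEC, where they are listed at 0.

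The widest ranges over the 8 group means were those of tissue isoforms of complex IV. Ndufa4l2, a HIF-induced paralog of Ndufa4, came first. It was listed at 0 in all 9 BMEC libraries from culture. In BMS it was at 72.9, 71.7 and 65.1 FPKM alone and at 2125, 2027 and 2271 FPKM with HSPC (4.92 ± 0.06, limma adjusted p = 1.3e-12). As a share of the summed FPKM of Ndufa4l2 and Ndufa4 this was 14.0% ± 1.9 alone and 87.7% ± 1.4 with HSPC. Cultured BMS had 301.8, 49.2 and 55.6 FPKM, with replicate 1 again apart. In vivo it was at 61.4, 57.97 and 71.2 FPKM in BMS and at 13.02, 10.2 and 9.28 FPKM in BMEC.

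Cox4i2, the alternative form of Cox4i1 that is known from lung and pericytes and is induced by low oxygen, was also listed at 0 in all 9 BMEC libraries from culture and in the 3 libraries of BMS alone. It was at 8.79, 14.0 and 11.4 FPKM in BMS with HSPC and at 8.93, 9.65 and 7.76 FPKM in cultured BMS. Its highest levels were in BMS in vivo, at 55.1, 48.7 and 72.4 FPKM (2.60 ± 0.26 above culture, limma adjusted p = 1.6e-05), where it made 6.35% ± 0.94 of the Cox4i1 and Cox4i2 sum. In BMEC in vivo it was at 6.41, 7.47 and 3.38 FPKM. The 8 pericyte and smooth muscle markers were all at 1 FPKM or more in the in vivo libraries, with sums of 2482 to 3038 FPKM in BMEC and 646.8 to 772.7 FPKM in BMS. The sum was 1130 to 1530 FPKM in cultured BMS, where 3 of the 8 markers were at 0 in all libraries. It was 628.9 to 746.2 FPKM in BMS alone and 316.7 to 390.7 FPKM with HSPC. In each of these 2 groups 5 of the 8 markers were at 0 in all libraries. The 5 genes most like Cox4i2 over the 8 group means were Txndc11, Ank1, Slc2a3, Notch3 and Snai1 (Pearson r = 0.97 to 0.94). Of these only Notch3 (r = 0.95) is among the 8 markers. The marker sum fell with HSPC in BMS, where Cox4i2 rose. In vivo the sum was higher in BMEC than in BMS, where Cox4i2 was higher. The part of pericytes in the levels of Ndufa4l2 and Cox4i2 was not tested.

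Cox8b, the heart, muscle and brown fat form of subunit 8, marked the endothelium of the co-culture series. It was at 1300, 1122 and 1002 FPKM in BMEC alone, level with Cox8a at 1065, 1059 and 1007 FPKM, and made 52.1% ± 2.6 of their sum. With HSPC it was at 181.9, 127.9 and 133.5 FPKM (-2.95 ± 0.22, limma adjusted p = 8.0e-07), or 11.1% ± 1.5 of the sum. In BMS it rose from 18.7, 21.1 and 14.5 to 49.7, 25.7 and 33.7 FPKM (0.93 ± 0.22, limma adjusted p = 0.0032), and the responses differed by -3.88 ± 0.31. Cultured BMEC had 9.79, 0 and 13.8 FPKM, and the gene was listed at 0 in cultured BMS and in all 6 in vivo libraries. The 6 adipocyte markers summed to 125.0 to 145.7 FPKM in BMEC alone, where 2 of them were at 0 in all 3 libraries. With HSPC the sum was 110.1 to 113.1 FPKM, with 3 of them at 0.

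Cox7a1, the heart and muscle form of subunit 7a, moved the other way in BMEC, from 19.0, 17.7 and 15.9 FPKM alone to 75.9, 71.9 and 66.5 FPKM with HSPC (1.97 ± 0.70, limma adjusted p = 0.038). It made 2.97% ± 0.36 and 10.3% ± 0.6 of the sum with Cox7a2. In each of the other 6 groups at least 1 library was listed at 0. Cox6a2, the heart and muscle form of subunit 6a, was listed at 0 outside the co-culture series of BMS, where it rose from 4.63, 7.04 and 5.03 to 12.9, 9.21 and 11.4 FPKM (0.90 ± 0.14, limma adjusted p = 0.00020).

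Cox6b2, known as the testis form of subunit 6b, stood out in BMS in vivo at 85.6, 106.4 and 91.5 FPKM, or 19.1% ± 1.4 of its sum with Cox6b1. Cultured BMS had 10.1, 7.99 and 10.3 FPKM (a rise of 3.19 ± 0.93, limma adjusted p = 0.014), and it was listed at 0 in all 6 libraries of the BMS co-culture series. BMEC in vivo had 12.8, 15.6 and 8.03 FPKM, and the cultured BMEC libraries 6.32, 30.8 and 0. The same BMS in vivo libraries hold the high erythroid sum, and its part in the Cox6b2 level was not tested.

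**Figure D4:**
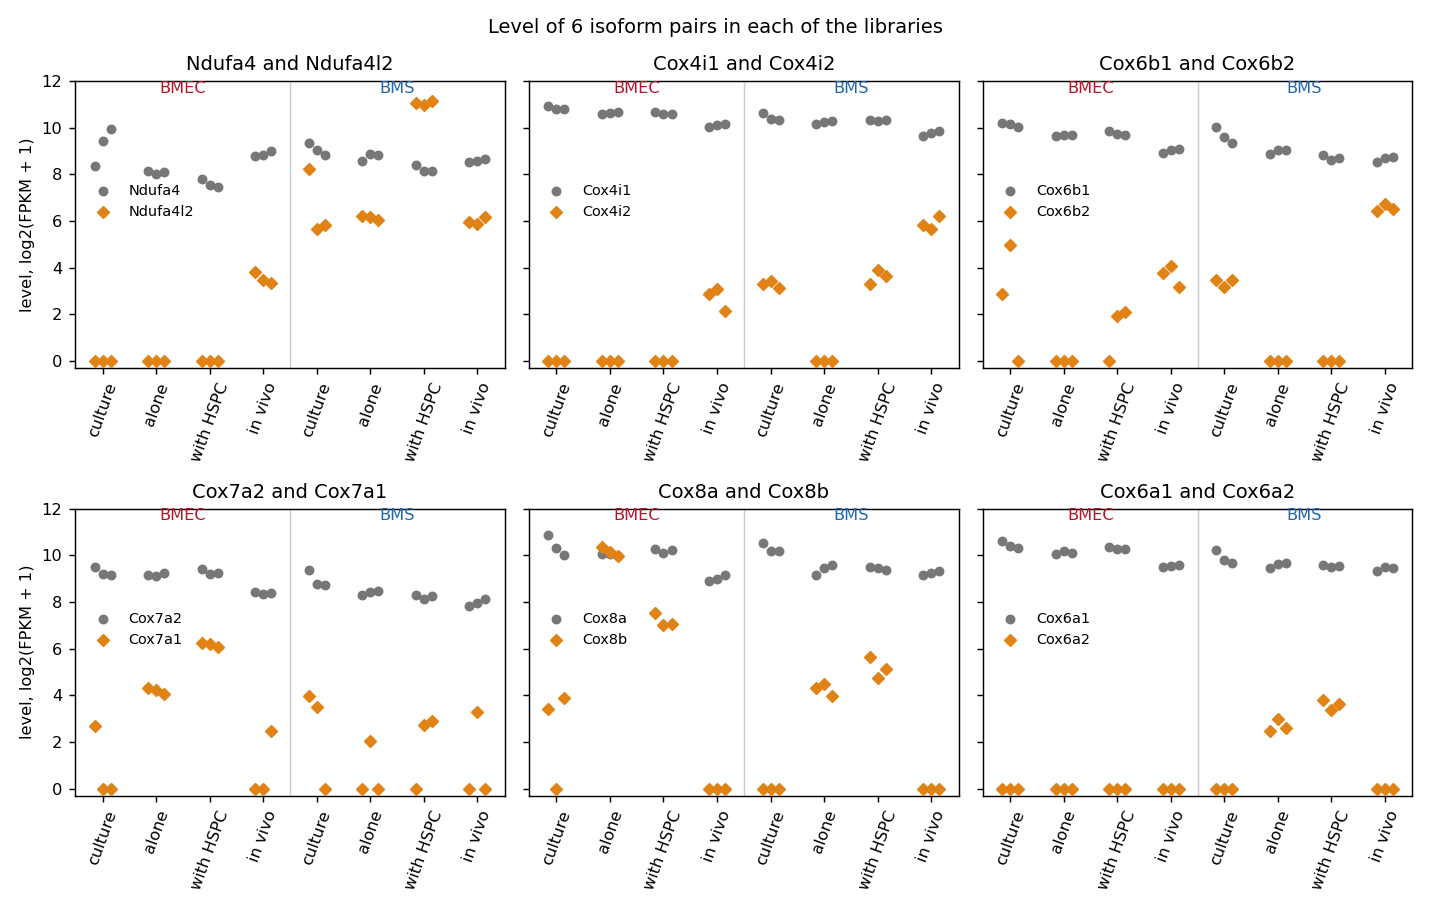
Each point is 1 library, with log2(FPKM + 1) of the ubiquitous form (grey) and the tissue form (orange) of 6 subunits; BMEC groups are on the left and BMS groups on the right of each panel, and points at the bottom are listed at 0. The tissue form reaches the level of the ubiquitous form for Cox8b in BMEC alone and passes it for Ndufa4l2 in BMS with HSPC.

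The 3 ring genes Atp5g1, Atp5g2 and Atp5g3 encode the same mature protein and differed in pattern. Atp5g3 was highest throughout, with group means between 903.8 and 1777 FPKM, rose with HSPC in BMEC and fell in BMS. Atp5g1 rose with HSPC in BMS (110.9, 113.3 and 121.1 to 185.2, 120.9 and 162.8 FPKM, with overlapping groups; 0.42 ± 0.12, limma adjusted p = 0.011). Atp5g2 was at 44.4, 53.2 and 54.5 FPKM in BMS alone and at 55.0, 50.8 and 53.9 FPKM with HSPC.

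Between the culture of the first series and the alone group of the co-culture series, changes were fewer. In BMEC, 3 of 91 members were higher alone and 14 lower (3.30% and 15.4%), against 8.78% and 14.4% (23.2% in all) of the 14071 genes tested, and in BMS 2 were higher and 21 lower (2.20% and 23.1%), against 16.0% and 17.8% (33.8% in all). The 3 higher genes in BMEC were Cox8b, Cox7a1 and Ndufa8, and the 2 in BMS were Cox8b and Cox6a2. Cox6a2 was tested here only because BMS alone itself reached 1 FPKM, so its call adds nothing to the listed levels. Sdhb was lower in BMEC alone, at 142.1, 146.1 and 160.0 against 227.5, 289.2 and 323.1 FPKM (-0.89 ± 0.17, limma adjusted p = 0.0050). Ndufab1, Ndufa4, Ndufb2 and Cox6c were lower in BMEC alone as well, with differences of -1.74 to -0.68. In BMS, Cox6b2 and Cox4i2 were listed at 0 alone, and Ndufab1, Cox8a (-0.91 ± 0.21), Ndufaf2 (-0.90 ± 0.14), Cox5b and Cox5a were lower. Cox4i2 likewise was tested only through its level in cultured BMS. The BMEC count was 41 without replicate 1 of cultured BMS and 6 to 7 without any 1 library of BMEC alone; the BMS count was 5, 9 and 11 without replicates 1, 2 and 3 of BMS alone.

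Genes around the respiratory chain gave a background for the members. Of all genes tested from culture to in vivo, 29.8% fell and 23.6% rose in BMEC, and 31.4% fell and 24.0% rose in BMS. From culture to in vivo, the 10 genes of ATP synthase assembly, its inhibitor and the nucleotide and phosphate carriers all fell in BMEC and 7 fell in BMS. Slc25a4, the ADP and ATP exchanger, went from 1538 ± 247 to 413.7 ± 18.4 FPKM in BMEC and from 2102 ± 589 to 647.6 ± 48.2 FPKM in BMS. Of 16 genes of the tricarboxylic acid cycle, 13 fell in BMEC and 10 in BMS; Cs, citrate synthase, fell by 1.08 ± 0.12 and 1.02 ± 0.12. Of 15 assembly genes of complex IV, 9 fell in BMEC and 6 in BMS, and of 6 further genes of complex III with its assembly factors 4 fell in each. Regulators of mitochondrial biogenesis were mixed, with 4 of 18 higher and 3 lower in each cell type, no larger shares than those of all genes. Of 9 HIF-response genes with a respiratory role, 2 fell in BMEC, and in BMS 1 rose and 6 fell.

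With HSPC, all 9 HIF-response genes rose in both cell types, against 10.8% of all genes tested. The median change of the 9 was 1.70 in BMEC and 3.55 in BMS. Of all genes tested, 28.3% rose and 20.3% fell in BMEC, and 25.6% rose and 35.4% fell in BMS. Higd1a, a HIF-induced small protein of the inner membrane that binds complex IV, is listed with the supercomplex factors as well. It rose from 28.9 ± 1.9 to 148.8 ± 11.4 FPKM in BMEC (2.32 ± 0.07) and from 68.7 ± 3.4 to 816.5 ± 53.7 FPKM in BMS (3.55 ± 0.07). Pdk1, a kinase that inhibits pyruvate dehydrogenase, rose by 1.70 ± 0.05 and 2.47 ± 0.05. Lonp1, the protease known from human cells to remove the Cox4i1 protein in low oxygen, rose by 1.05 ± 0.03 and 1.27 ± 0.03. Of the tricarboxylic acid cycle genes, 1 rose and 4 fell in BMEC, and 1 rose and 11 fell in BMS. Ppargc1a, a coactivator of mitochondrial genes, fell in BMS from 14.8 ± 0.8 to 2.00 ± 0.30 FPKM (-2.40 ± 0.09) and was listed at 0 in BMEC in both groups. Myc fell in BMEC (-1.04 ± 0.09) and rose in BMS (0.97 ± 0.09).

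Over the 8 group means, the genes outside the members whose pattern was most like that of Ndufa4l2 were Isoc1 (Pearson r = 0.99), Pkd2, Lamb1, Lingo1 and Leprotl1. For Cox8b the closest was Foxo6 (r = 0.98), for Cox6b2 Chst11 (r = 0.97) and for Cox4i2 Txndc11 (r = 0.97). These are the highest of the correlations of all genes over 8 points and serve as a description.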

How the data were processed

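RNA of 24 mouse libraries (8 groups of 3, from the titles) was analysed from 1 FPKM per gene symbol and library. The authors made these FPKM with TopHat and Cufflinks on mouse build mm9, as listed without versions, per the submitters' processing notes. Library totals were 1421447 to 1808592. A further scaling is not stated, reads per library are not given, and low values gave no read count, so depth is unknown. Families with near-identical copies or pseudogenes may share reads.

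From the deposited FPKM, log2(FPKM + 1) was fitted with limma 3.58.1 in R 4.3.3 (lmFit, eBayes with a trend) in 3 fits of 12 libraries each: culture with in vivo, alone with HSPC, and culture with alone. Genes at FPKM 1 or more in at least 3 libraries of a fit were tested, and p-values were adjusted by Benjamini-Hochberg over all of them. That left out Cox6a2, Cox7b2, Cox8b and Cox8c in the in vivo fit, Cox6b2, Cox7b2 and Cox8c in the HSPC fit, and Cox7b2 and Cox8c in the culture fit. Of 12 comparisons, 2 were interactions.

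Members, lists and tests were chosen with earlier results of these data known. Named were, per comparison, up to 5 rises and 5 falls with a mean of at least 5 FPKM, isoform pairs, complex II and Cycs, level extremes, X-linked genes and called list genes; others named were chosen after their values were seen. Alternatives were a pseudocount of 0.1, no filter or one at FPKM 5, trimmed-mean and quantile scaling, the compared groups alone, each library left out, replicate numbers as a block, group weights, fits without libraries at Xist of 100 or more and, added later, counts without assembly factors and isoforms. The scripts were tested on simulated data. Figures used Python 3.11.15 and matplotlib 3.10.9.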

Additional observations from a re-analysis of the deposited data

Results flagged for a closer look

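The change from culture to in vivo differed between endothelium and stroma for 6 members by limma's interaction term. Relative to BMS, the change in BMEC was higher for Ndufa4l2 (4.12 on the log2 scale, a value that depends on the added 1 because cultured BMEC is listed at 0) and for Atp5s (0.74). It was lower for Ndufb2 (-1.69), Ndufs4 (-0.96), Uqcrfs1 (-0.87) and Cox5b (-0.78).

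The change with HSPC differed for 43 members. Among them the largest higher values in BMEC were those of Cox6c (0.93), Ndufaf3 (0.62), Cycs (0.61), Ndufc1 (0.59) and Ndufa1 (0.58). The largest lower values were those of Ndufa4l2 (-4.92), Cox8b (-3.88), Cox4i2 (-3.61), Cox6a2 (-0.90, -0.895 unrounded) and Cox7a2l (-0.59). Ndufa4l2, Cox4i2 and Cox6a2 are listed at 0 in BMEC alone and with HSPC, and Cox4i2 also in BMS alone, so these values rest on the change in BMS and on the added 1. Cox4i2 was tested only through its level in BMS with HSPC. The neutrophil marker sums given with the HSPC results are higher in BMEC than in BMS, and their part was not tested.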

How the results depend on the processing

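Counts of members called are given here. BMEC against BMS in culture (31) became 4 with a weight per group, 3 with the compared groups alone and 11 without the libraries with Xist, and ran from 8 to 58 with 1 library left out. BMEC against BMS in vivo (18) became 44 with a weight per group and 42 with the compared groups alone, and ran from 10 to 29. The in vivo interaction (6) became 15 with trimmed-mean scaling and 19 with quantile normalization, and ran from 3 to 32. BMEC alone against culture (17) became 9 with a weight per group and ran from 6 to 41; BMS alone against culture (23) became 13 with a weight per group and 12 with the compared groups alone, and ran from 5 to 27. With 1 library left out, BMEC and BMS in vivo against culture ran from 64 to 78 and from 42 to 67, and HSPC in BMEC, in BMS and their interaction from 18 to 31, 45 to 58 and 36 to 53; under the other alternatives these moved by less than 1.5 times. Quantile normalization reversed the median member of BMEC against BMS in vivo (-0.0529) and Ndufa1 in BMS in vivo against culture (0.0246, limma adjusted p = 0.85). The cause was not tested. With the replicate number as a block, counts were 26 for BMEC against BMS in culture and 51 for HSPC in BMS. Under this block no count moved by over 1.5 times. Same-numbered libraries correlated between -0.17 and 0.13 in their deviations, which cannot decide whether they share an animal or batch.

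The unknown depth, 3 libraries per group and the unstated origin of replicates limit every comparison, and isoforms listed at 0 have no fold.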
